A study of Mus musculus with 6 samples.

Results

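Dendritic cells were followed through 3 disease states of the C3(1)-Tag mouse mammary gland, and 94 of the 22244 cells kept were counted as such. A cell was kept with 200 or more detected genes and under 10% mitochondrial UMIs (unique molecular identifiers, each standing for 1 captured RNA molecule). A kept cell was called a dendritic cell when it held at least 2 UMIs of H2-Ab1 and of Cd74, a UMI of Flt3, Cd209a, Xcr1, Clec9a, Ccr7 or Zbtb46, at most 1 of the 3 C1q genes, and no UMI of Cd79a, Cd3e or Epcam. The cells were thus chosen by the UMIs of these 14 genes, whose levels are given as a description and were not tested. The 94 cells came from 6 single-cell RNA sequencing libraries, 2 for each state, of female C3TAG mice, in which the C3(1) promoter drives the SV40 large T antigen in mammary epithelium and mammary tumours follow (FVB/NJ background by the study's methods). All 3 states carry the transgene. Prepuberty is the whole gland at 5 weeks of age, DCIS the whole gland at 14 weeks, when it holds ductal carcinoma in situ, and Tumor a palpable tumour taken after 18 weeks. The labels do not say whether both libraries of a state came from separate mice, so a p-value measures the spread between these libraries, which may be technical.

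Dendritic cells take up antigen, load its peptides on MHC class II and carry it to lymph nodes, where they prime T cells. Type 1 conventional dendritic cells are marked by Xcr1 and Clec9a and depend on Batf3 and Irf8. Type 2 and monocyte-derived forms carry lectins such as Cd209a. Both can pass into a mature state that expresses Ccr7, the receptor that guides them to the lymph node, together with fascin, costimulatory ligands and the chemokines Ccl22 and Ccl17.

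The 7, 15, 29, 17, 15 and 11 dendritic cells of Prepuberty 1 and 2, DCIS 1 and 2 and Tumor 1 and 2 held 41274, 105320, 193329, 97185, 82665 and 92580 UMIs, so that 1 UMI was worth 24.2, 9.49, 5.17, 10.3, 12.1 and 10.8 CPM (UMIs per 1000000 of a library's dendritic cell UMIs). Prepuberty 1, with fewer than 10 cells, entered the tests across genes only in the alternatives said to let it in. A single cell of Tumor 2 held 41186 UMIs, 44.5% of the dendritic cell UMIs of that library, and a single cell of Prepuberty 1 held 43.4%. The Tumor 2 cell had none of the 4 genes that split the subsets, 1 UMI of Zbtb46, 0 of Flt3 and 83 of Cenpe, a gene of dividing cells. Values without it are given beside the results it decides. No barcode was a dendritic cell in more than 1 library, 1 dendritic cell barcode of DCIS 1 recurred among the kept cells of DCIS 2, and 279 barcodes of kept cells recurred over the 15 pairs of libraries.

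The defining markers were present unevenly. Flt3, the growth factor receptor of the lineage, was detected in 0, 2, 12, 5, 6 and 2 cells, and Zbtb46, its transcription factor, in 0, 6, 7, 4, 0 and 1. Prepuberty 1 had no UMI of Flt3, Zbtb46 or Fscn1 and its 7 cells rested on Ccr7. Itgax, which encodes CD11c, was detected in 0, 1, 0, 0, 6 and 2 cells, so it was at or near 0 in the glands. Zbtb46 was also held by 2.51% to 5.46% of the cells without Ptprc in the same libraries, so it is a weak mark of the lineage here. Markers of other cells came with some libraries. The 10 epithelial markers, Epcam included, summed to 0, 9.49, 46.6, 51.4, 278 and 86.4 CPM, and Krt18 was detected in 8 of the 15 cells of Tumor 1. B cell markers summed to 363, 902, 41.4, 20.6, 593 and 292 CPM, with Igkc in 6 of the 15 cells of Prepuberty 2. Macrophage markers summed to 529 to 2772 CPM, against 8461 to 50276 in the C1q macrophages of the same libraries. Fibroblast markers summed to 1454, 323, 56.9, 10.3, 133 and 897 CPM, and of the 2 tested between Tumor and DCIS Dcn was called higher, with its 799 CPM in Tumor 2 wholly in the deepest cell. Plasmacytoid dendritic cell markers summed to 688 to 2212 CPM, and of the 4 tested Bst2 was called lower in Tumor. Neutrophil markers summed to at most 165 CPM, T and NK cell markers to at most 367 CPM. The part of these RNAs in the results below was not tested. By the study's methods, glands were digested overnight with warming and rotation, and tumours with another dissociation kit and no stated time. Tumor 2 had a later library kit, whereas the labels give 1 protocol. The dissociation cannot be told apart from the Tumor state, and its part in the results below was not tested. Values without Tumor 2, given below, are values without the later library kit.

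The rule left narrow margins at some genes. Inside it, 7 cells held exactly 2 UMIs of H2-Ab1 and 8 cells held a C1q gene. Outside it, 42 cells failed at H2-Ab1 alone, 12 of them with exactly 1 UMI, 8 at Cd74 alone and 42 at the C1q genes alone. A further 149 met all but the list of 6 dendritic cell genes. B cell exclusion through Cd79a alone removed 28, of which 20 were in Prepuberty 2, and Epcam alone removed 32, of which 17 were in Tumor 1.

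Dendritic cells were a small share of every library. They made up 0.160% (95% exact binomial interval 0.0642 to 0.328) of kept cells in Prepuberty 1, 0.416% (0.233 to 0.686) in Prepuberty 2, 0.915% (0.614 to 1.31) in DCIS 1, 0.425% (0.248 to 0.679) in DCIS 2, 0.335% (0.188 to 0.552) in Tumor 1 and 0.422% (0.211 to 0.754) in Tumor 2. The intervals cover counting error only. The mean share was 0.288% ± 0.182 (SD, n = 2) in Prepuberty, 0.670% ± 0.347 in DCIS and 0.379% ± 0.0615 in Tumor. DCIS 1 stood highest, and DCIS 2, at 0.425%, lay just above the highest library of either other state. The two-sided exact permutation p was 0.333 for DCIS against Prepuberty and for Tumor against DCIS, the smallest that 2 against 2 can give, and 0.667 for Tumor against Prepuberty, so the test could not pass at this size. Scrublet marked 6 of the 29 and 4 of the 17 DCIS cells as doublets and none in the other libraries. Without doublets the difference of DCIS from Prepuberty went from 0.382 to 0.245 percentage points and that of Tumor from DCIS from -0.291 to -0.148, with overlapping libraries. Without DCIS 1 they were 0.137 and -0.0461. Without Prepuberty 1 the difference of Tumor from Prepuberty turned from 0.0907 to -0.0377 percentage points.

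Cells were split by which of the subset genes they held, with cells holding genes of more than 1 subset set apart as mixed. Ccr7 cells were 7 of 7, 11 of 15, 27 of 29 and 17 of 17 in the 4 gland libraries and 4 of 15 and 1 of 11 in the tumours. Cd209a cells were 0 of the dendritic cells in every gland library, 3 of 15 in Tumor 1 and 8 of 11 in Tumor 2. Counted over all kept cells, a Cd209a UMI was held by 6, 1, 14, 2, 14 and 13 cells from Prepuberty 1 to Tumor 2. Among C1q macrophages, which the limit on C1q genes leaves out, 5.0%, 3.57%, 6.29%, 0%, 1.95% and 1.43% held one in that order. Xcr1/Clec9a cells were 0 in every gland library, 4 of 15 in Tumor 1 and 1 of 11 in Tumor 2. Over the glands, 62 of 68 cells were Ccr7 cells (91.2%, 95% exact binomial interval 81.8 to 96.7), and 0 of 68 fell in either other subset. A count of 0 of 68 allows a share of up to 4.41% by a floor of 3 counts, and of up to 5.28% by the exact binomial interval used for the other shares. Both limit cells with a UMI of those genes alone, by counting error only, and not cells that express them below detection. Over the tumours, 5 of 26 were Ccr7 cells (19.2%, 6.55 to 39.4), 11 were Cd209a cells (42.3%, 23.4 to 63.1) and 5 were Xcr1/Clec9a cells. The remaining 5 and 1 gland cells and 3 and 2 tumour cells held none of these genes or were mixed. Without cells holding Krt8, Krt18 or T-antigen UMIs, Tumor 1 kept 7 cells, of which 0 were Cd209a cells, 1 was an Xcr1/Clec9a cell and 3 were Ccr7 cells, so that the Cd209a cells left were the 7 of 10 in Tumor 2. In Prepuberty 2 all 6 cells with Igkc were Ccr7 cells. Without cells holding further B or T cell genes, Ccr7 cells were 7 of 7, 6 of 10, 26 of 28 and 17 of 17 in the glands. In the tumours they were then 3 of 14 and 1 of 10.

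Every gland library had a higher share of Ccr7 cells than either tumour. The mean was 86.7% ± 18.9 (SD, n = 2) in Prepuberty, 96.6% ± 4.88 in DCIS and 17.9% ± 12.4 in Tumor. Since the rule and the split both use the subset genes, these shares are a description and were not tested. The Ccr7 gene was detected in 0.173% to 1.82% and Cd209a in 0% to 0.171% of the cells of the same libraries that held no Ptprc UMI and were neither dendritic cells nor C1q macrophages, most of them non-immune cells that should lack both genes. Those cells were deeper, with medians of 6684 to 14806 UMIs against 2866 to 6118 in dendritic cells. With every cell thinned to 2000 UMIs, which kept 2, 12, 22, 16, 15 and 9 dendritic cells, the difference between Tumor and DCIS in the Ccr7 share was -74.4 percentage points, against -78.7 without thinning. In the thinned tumours Ccr7 cells were 7 of 15 and 0 of 9, Cd209a cells 2 of 15 and 8 of 9, and Xcr1/Clec9a cells 3 of 15 and 0 of 9. The Xcr1/Clec9a share of Tumor 2 was then 0 as in the glands. Median UMIs of H2-Ab1 per dendritic cell were 9, 8, 17, 16, 68 and 21, and those of Cd74 were 12, 16, 32, 31, 87 and 70.

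**Figure D1:**
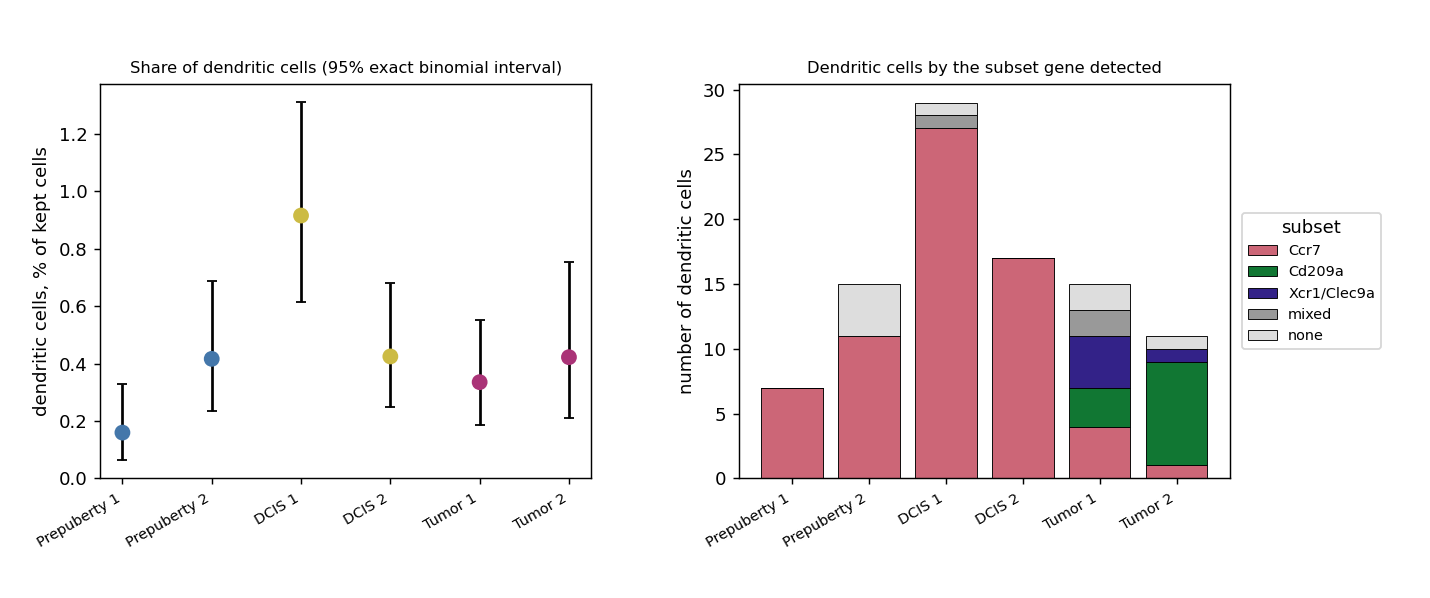
Left, dendritic cells as a percentage of kept cells in each library (points) with 95% exact binomial intervals (bars). Right, the number of dendritic cells in each library, stacked by the subset gene detected; the 4 gland libraries are mostly Ccr7 cells (62 of 68), and Cd209a and Xcr1/Clec9a cells appear in Tumor 1 and Tumor 2.

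To ask which genes differed between tumours and whole glands holding in situ lesions, UMIs were summed over the dendritic cells of each library. The sums were compared with the quasi-likelihood test of edgeR, with Benjamini-Hochberg adjustment over all genes. In such sums, fewer cells of a subset and less RNA per cell cannot be told apart. Ccr7 and Cd209a also let cells in by the rule. Genes expressed along with them may differ through that choice, and its part in the counts below was not tested. Between Tumor and DCIS 288 of 2365 genes passed (12.2%), 113 higher in Tumor (4.78%) and 175 lower (7.4%), beside a median log2 difference of 0.23 over all genes. The tumours did not overlap the DCIS libraries in 277 of the 288, as in 56.7% of all genes tested. The count was 616 without Tumor 1, 115 without Tumor 2, 148 without DCIS 1 and 134 without DCIS 2. It was 428, with 256 genes shared, when cells over 20000 UMIs were left out, 154 when Prepuberty 1 was let in, and 124 when cells holding Krt8, Krt18 or T-antigen UMIs were left out. That last setting, named below as the one without epithelial UMIs, left Tumor 1 with 7 cells, so libraries of 5 or more cells entered it and Prepuberty 1 was let in too; its counts mix both changes. A gene could pass the filter on low counts through the state where it is high, so the counts below are of genes that passed it.

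In the programme of mature, migrating dendritic cells most genes tested were lower in Tumor. Of its 32 genes, Ccr7 among them, 24 were tested, 19 were lower in Tumor and 0 higher, and their median log2 difference was -3.13. This count was 21 without cells over 20000 UMIs, 9 of 21 tested with Prepuberty 1 let in, 12 of 20 with Prepuberty 1 let in and no epithelial UMIs, 8 without Tumor 2, 12 without DCIS 1 and 11 without DCIS 2. Ccr7 itself, which chose cells, stood at 800, 627, 1629, 1183, 714 and 10.8 CPM.

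The chemokine Ccl5 (ENSMUSG00000035042, chr11:83525778-83530518 on GRCm38, minus strand), which draws T cells and NK cells, was the most abundant of these genes. It stood at 27523 and 8374 CPM in Prepuberty, 51130 and 75351 in DCIS, and 2056 and 10.8 in Tumor. Both tumours lay below every gland, and DCIS lay above Prepuberty (log2 difference Tumor against DCIS -6.40, SE 1.20, adjusted p = 0.0013). It was detected in 26 of 29 and 15 of 17 DCIS cells and in 5 of 15 and 1 of 11 Tumor cells. Cells without Ptprc of DCIS 1 and DCIS 2 also held Ccl5 UMIs in 36.1% and 23.9%, with median depths of 7244 and 6684 UMIs against 5959 and 5160 in dendritic cells, and those of Tumor 1 and Tumor 2 in 20.2% and 1.77%. The share of such cells with Ccl5 was thus lower in Tumor 2 along with the gene. Whether it is background was not tested, nor was its part in the result. Ptprc is often missed, with a UMI in 12 of 29 dendritic cells of DCIS 1, so such cells may include immune cells. The median DCIS dendritic cell held 96 and 180 UMIs of it.

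The ligands of CCR4, Ccl22 (ENSMUSG00000031779, chr8:94745590-94751699) and Ccl17 (ENSMUSG00000031780, chr8:94810453-94812036), both lie on the plus strand of chromosome 8. Ccl22 stood at 824 and 1424 CPM in Prepuberty, 2524 and 2830 in DCIS, and 145 and 0 in Tumor (log2 difference -5.71, SE 0.85, adjusted p = 0.0002). Ccl17 stood at 0 and 684, 1459 and 360, and 266 and 0 CPM in the same order (-3.30, SE 0.92, adjusted p = 0.022). For both genes the DCIS libraries lay above both tumours, and Tumor 2 had no UMI. Cxcl16 went from 1055 and 936 CPM in DCIS to 399 and 54.0 in Tumor (-2.63, SE 0.70, adjusted p = 0.015). The neutrophil chemokine Cxcl3 (ENSMUSG00000029379, chr5:90786103-90789600) stood at 630, 256, 921 and 226 CPM in the glands and 0 in both tumours, at least 40.2-fold lower than in DCIS (a floor of 3 UMIs over both tumours, adjusted p = 0.00013). Its neighbour in function Cxcl2 went from 1505 and 2161 to 133 and 119 CPM, and all UMIs of it in Tumor 2 were in the deepest cell. In all, 7 of 15 tested chemokines were lower and 1, Ccl6, was higher, with a median of -1.60, and 4 were lower without Tumor 2. Ccl6 ran the other way, with 41.4 and 20.6 CPM in DCIS and 1512 and 1069 in Tumor (4.74, SE 0.68, adjusted p = 0.00016).

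Other members mark the cytoskeleton, metabolism and signalling of the mature state. Il4i1 (ENSMUSG00000074141, chr7:44816387-44840809), a secreted amino acid oxidase, stood at 436 and 209 CPM in Prepuberty, 352 and 947 in DCIS, and 12.1 and 0 in Tumor. With 1 UMI left in Tumor, the DCIS level was 96.5 times the Tumor level (95% counting interval 17.1 to 3836, adjusted p = 0.00013). Fscn1, the actin bundler of mature dendritic cells, went from 626 and 947 CPM in DCIS to 363 and 32.4 in Tumor (-2.48, SE 0.73, adjusted p = 0.029), and 3 of the UMIs in Tumor 2, all there were, lay in the deepest cell. The gene is also expressed outside the lineage: 19.5% to 47.3% of cells without Ptprc held a UMI of it. Tmem123 went from 1914 and 2490 to 254 and 97.2 CPM (-4.14, SE 0.62) and Serpinb6b from 1650 and 1790 to 254 and 0 (-4.26, SE 0.85). Cacnb3, a calcium channel subunit, went from 217 and 412 to 72.6 and 10.8 CPM (-3.39, SE 0.75), and Tbc1d4 from 305 and 515 to 181 and 21.6 (-2.50, SE 0.73). Among the DCIS and Tumor libraries, Tumor 2 stood lowest in each of these genes and Tumor 1 between it and DCIS.

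**Figure D2:**
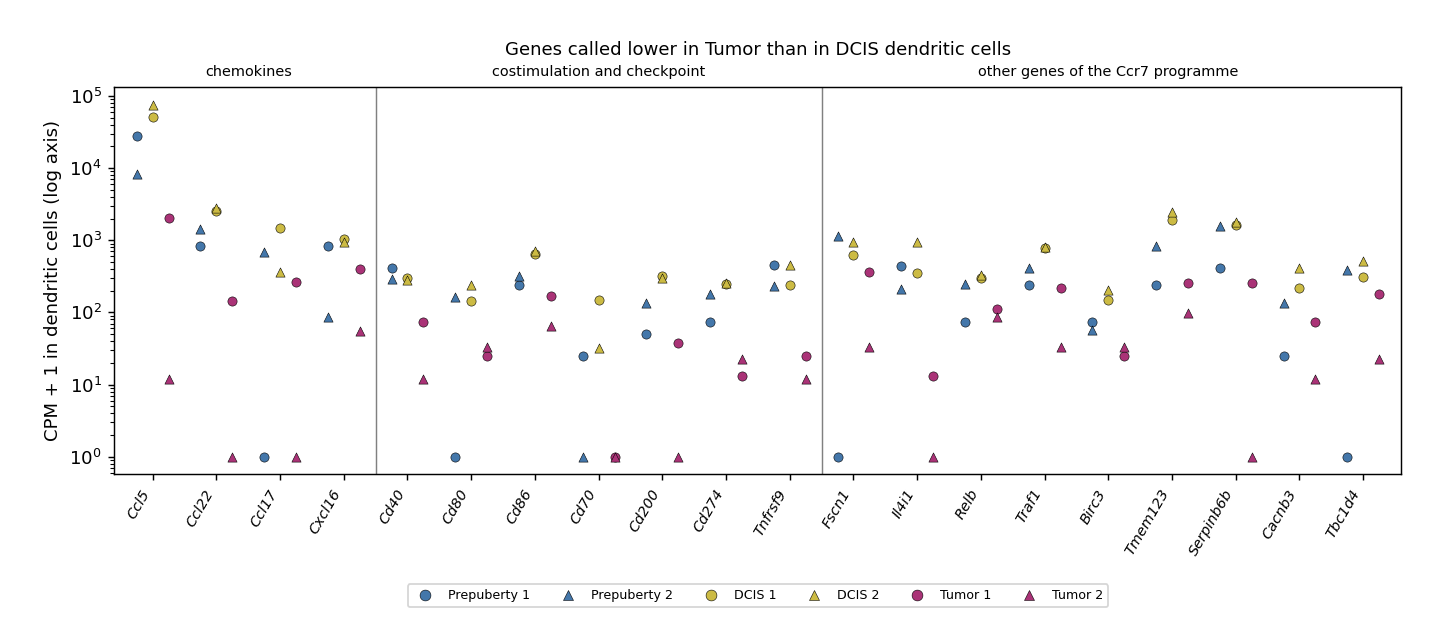
CPM + 1 (log axis) of chemokines, costimulatory or checkpoint genes and other genes of the Ccr7 programme in the dendritic cells of each library; colours give the state, circles library 1 and triangles library 2. All genes shown passed the test as lower in Tumor than in DCIS, and Tumor 2 lies at or near 0 for most of them, as with Ccl22 and Serpinb6b.

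Costimulatory and checkpoint genes, through which dendritic cells license or restrain T cells, were lower in Tumor in 7 of 14 tested and higher in 0 (median -3.11). The count was 9 without cells over 20000 UMIs, 5 of 7 tested without epithelial UMIs and with Prepuberty 1 let in, and 4 without Tumor 2. Cd40, the receptor for T cell help, stood at 295 and 278 CPM in DCIS and 72.6 and 10.8 in Tumor (-3.28, SE 0.74, adjusted p = 0.0045). Cd86 stood at 652 and 710 and then 169 and 64.8 CPM (-3.04, SE 0.64), and Cd80 at 145 and 237 and then 24.2 and 32.4 CPM (-3.18, SE 0.71); both encode ligands of CD28. Cd274, which encodes PD-L1, stood at 243 and 257 CPM in DCIS and 12.1 and 21.6 in Tumor, a ratio of 14.5 (counting interval 4.76 to 71.8, adjusted p = 0.00088). The ratio was 18.3 for Cd200 (6.07 to 90.4) and 18.1 for Tnfrsf9 (6.0 to 89.4). Cd70, whose product binds CD27 on T cells, had 150 and 30.9 CPM in DCIS and none in Tumor, at least 6.43-fold lower (adjusted p = 0.045). Cd83 did not pass: it stood at 466 and 689 CPM in DCIS and 472 and 21.6 in Tumor (-1.71, SE 0.78, adjusted p = 0.16).

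Of 10 cytokine genes tested, 5 were lower (Il6, Il15, Il18, Ebi3 and Il1rn), 1 was higher (Tgfb1), and the median was -3.13. Il18 went from 274 and 391 CPM in DCIS to 12.1 and 43.2 in Tumor (-4.01, SE 0.73, adjusted p = 0.0011), and Il15, a survival factor of NK and memory T cells, from 171 and 144 to 36.3 and 10.8 (-3.23, SE 0.77, adjusted p = 0.0075). Il6 went from 279 and 432 CPM to 0 and 119, the last of which lay wholly in the deepest cell. Tgfb1, an immunoregulatory cytokine, rose from 36.2 and 20.6 to 254 and 173 CPM (2.28, SE 0.71, adjusted p = 0.038). Il12b, the cytokine subunit that drives type 1 T cell responses, was uneven, with 145 and 47.5 CPM in Prepuberty, 0 and 20.6 in DCIS, and 230 and 0 in Tumor (adjusted p = 0.24).

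NF-kB is the transcription factor family whose activation accompanies maturation, and it induces its own inhibitors. Of 14 tested genes of NF-kB feedback and its targets, 8 were lower in Tumor and 0 higher (median -2.19), a count of 10 without cells over 20000 UMIs, 3 of 12 tested without epithelial UMIs and with Prepuberty 1 let in, 4 without Tumor 2 and 5 without either DCIS library. Nfkbia, the inhibitor IkB-alpha, went from 1940 and 2099 CPM in DCIS to 484 and 346 in Tumor (-2.79, SE 0.54, adjusted p = 0.0017). Relb, the subunit tied to dendritic cell maturation, went from 295 and 329 to 109 and 86.4 (-2.17, SE 0.61, adjusted p = 0.022). Traf1 went from 791 and 813 to 218 and 32.4 (-3.18, SE 0.70), Birc3 from 150 and 206 to 24.2 and 32.4 (-3.09, SE 0.71) and Tnip3 from 253 and 319 to 157 and 32.4 CPM (-2.09, SE 0.68, adjusted p = 0.046).

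The promoters of these genes were read for an NF-kB-like motif because the genes moved together. Among the 8 lower genes, 7 had a RefSeq window of 250 bases before the start (GRCm38.p6) and 3 held GGNNNTTCC on either strand (Nfkbia, Birc2 and Tnip3). Over all 27025 genes with a window of that length the share was 17.6%, and over the NF-kB list it was 11 of 17. A gene was counted if any of its windows held a match. Over other lists the share was 9 of 14 for chemokines, 7 of 15 for cytokines, 10 of 26 for interferon-response genes and 4 of 12 for costimulation. It was 3 of 23 for the Ccr7 programme, 7 of 17 for the Cd209a programme and 5 of 10 for heat shock genes. Monocyte markers had 4 of 7 and AP-1 and immediate early genes 1 of 19. Whether the share goes with the direction of the genes was not tested. These lists were singled out after their shares were seen. The 2 windows below show the case with the most matches, Nfkbia, with 4 matches counted on both strands at 3 places (chr12:55492648-55492897, minus strand), and a case with 1 match, Tnip3 (chr6:65590148-65590397, plus strand). Capitals mark the motif. A match describes the letters and not a bound site.
Nfkbia: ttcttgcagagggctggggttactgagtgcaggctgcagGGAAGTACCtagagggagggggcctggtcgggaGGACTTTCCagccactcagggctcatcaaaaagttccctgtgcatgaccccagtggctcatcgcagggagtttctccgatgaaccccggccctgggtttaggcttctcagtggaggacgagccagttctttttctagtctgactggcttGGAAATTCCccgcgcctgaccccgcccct
Tnip3: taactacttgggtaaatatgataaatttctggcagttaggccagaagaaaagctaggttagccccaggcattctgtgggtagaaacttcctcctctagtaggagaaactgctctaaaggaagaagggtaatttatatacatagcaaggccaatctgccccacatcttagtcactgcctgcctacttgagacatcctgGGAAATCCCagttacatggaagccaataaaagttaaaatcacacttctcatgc

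Interferon-response genes were lower in Tumor in 9 of 19 tested and higher in 0 (median -2.10), a count of 14 of 20 without cells over 20000 UMIs, of 3 without DCIS 2, and of 3 of 14 without epithelial UMIs and with Prepuberty 1 let in. The whole list summed to 5185 and 9599 CPM in Prepuberty, 5405 and 6009 in DCIS, and 1452 and 5260 in Tumor. By this sum Tumor 2 lay near DCIS. Irf7, a regulator of type I interferon, went from 1200 and 1224 CPM in DCIS to 266 and 86.4 in Tumor (-3.28, SE 0.63, adjusted p = 0.0015). Oasl2 went from 238 and 268 to 24.2 and 21.6 (-3.90, SE 0.72, adjusted p = 0.0012). Rsad2, an antiviral enzyme, went from 569 and 196 to 60.5 and 21.6 CPM (-3.74, SE 0.76, adjusted p = 0.0022). In all 3 genes Prepuberty 2 stood above both tumours too.

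Some genes of Cd209a-type and monocyte-like dendritic cells were higher in Tumor. Of 24 such genes, Cd209a among them, 15 were tested, 6 were higher and 0 lower, with a median of 2.11. The count was 7 without cells over 20000 UMIs, 3 without DCIS 2, 2 with Prepuberty 1 let in, 0 of 11 tested without Tumor 2, and 0 of 6 tested without epithelial UMIs and with Prepuberty 1 let in. Cd209a, which chose cells, had 0 UMIs in the dendritic cells of all 4 gland libraries and 423 and 605 CPM in those of Tumor. Monocyte markers moved with these genes: 4, 7, 6, 3, 7 and 8 of the 10 were detected in the 6 libraries, and they summed to 581 and 722 CPM in Prepuberty, 1366 and 587 in DCIS, and 2940 and 3230 in Tumor. Their part in the result was not tested.

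Clec4a2 (ENSMUSG00000030148, chr6:123106428-123143999), an inhibitory C-type lectin, had no UMI in any gland library and 206 and 184 CPM in Tumor 1 and 2, at least 18.8-fold higher than in DCIS (adjusted p = 0.0031). Cd209d (ENSMUSG00000031495, chr8:3871824-3878555), a lectin gene near Cd209a and with related sequence, had 0 and 20.6 CPM in DCIS and 194 and 313 in Tumor, a ratio of 37.3 (counting interval 9.74 to 317, adjusted p = 0.0035); how reads shared by such genes were assigned is not known here. Ccr2, the receptor that brings monocytes into tissue, had 5.17 and 0 CPM in DCIS and 48.4 and 702 in Tumor, most of it in Tumor 2 (ratio 114, 19.9 to 4583, adjusted p = 0.0019). Lyz2 went from 1143 and 103 CPM to 5371 and 3532 (2.28, SE 0.72, adjusted p = 0.039), while Prepuberty 2 also had 5270 and Tumor 2 had 4047 CPM without its deepest cell. S100a4 went from 217 and 82.3 to 774 and 1156 CPM (2.11, SE 0.60, adjusted p = 0.025).

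The immunoglobulin receptor genes Fcgr2b and Fcgr3, members of the lysosome and phagocytosis list, were higher too. Fcgr2b went from 25.9 and 20.6 CPM in DCIS to 266 and 216 in Tumor (2.78, SE 0.71, adjusted p = 0.012) and Fcgr3 from 20.7 and 10.3 to 157 and 259 (3.04, SE 0.73, adjusted p = 0.008). Fcrls (ENSMUSG00000015852, chr3:87250758-87263738), an Fc-receptor-like gene of myeloid cells, had 0 UMIs in all glands and 278 and 238 CPM in Tumor, at least 24.9-fold higher (adjusted p = 0.00051). Tppp3, a tubulin-binding gene, was at least 25.4-fold higher, with 363 and 173 CPM in Tumor, none in DCIS and 24.2 and 0 in Prepuberty. Clec4b1 and Dok2 were at least 15.5-fold higher, and Mef2c at least 13.8-fold. Fn1, which encodes fibronectin, had 0 and 10.3 CPM in DCIS and 508 and 1275 in Tumor (ratio 265, 46.9 to 10541), but 97.3 CPM in Tumor 2 without its deepest cell.

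**Figure D3:**
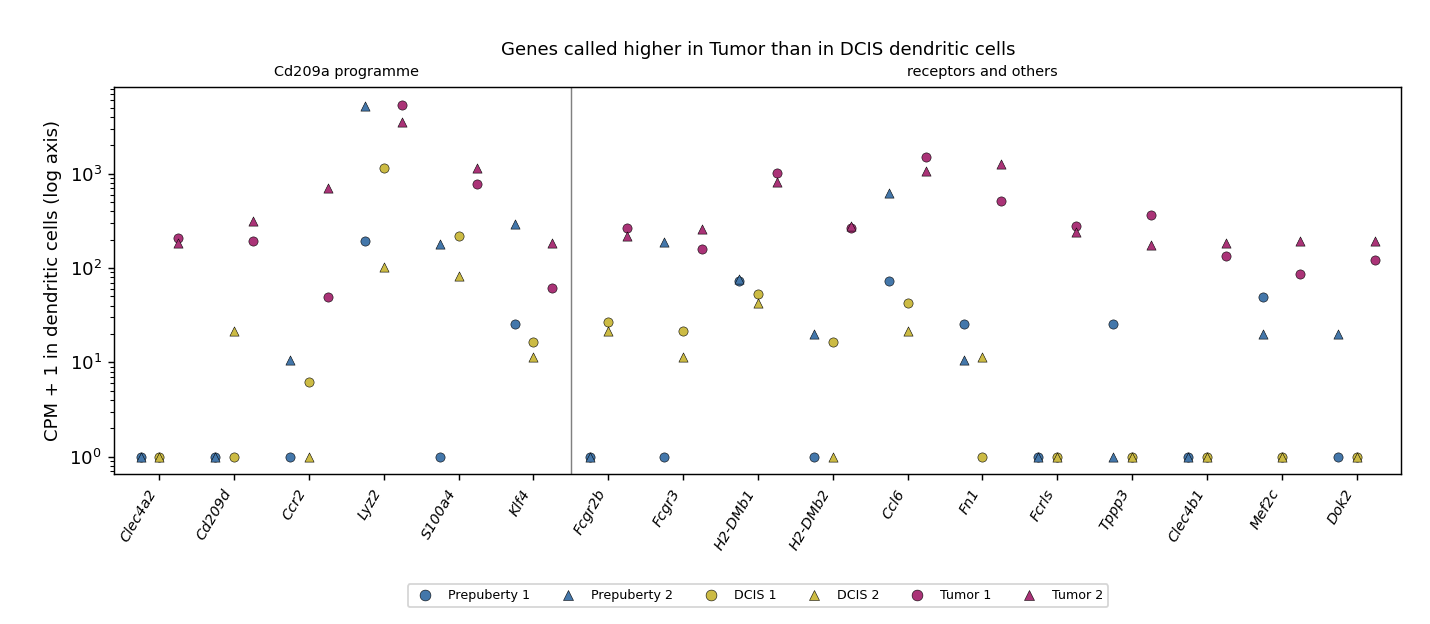
CPM + 1 (log axis) in dendritic cells of each library for genes that passed as higher in Tumor than in DCIS, grouped as Cd209a programme and others; colours give the state, circles library 1 and triangles library 2. Clec4a2, Fcrls and Clec4b1 lie at 0 in all 4 gland libraries, while Lyz2 and Ccl6 are also high in Prepuberty 2.

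The largest changes by the rule for named genes also held genes outside the lists or not yet described. Ptgs2 had 145 and 535 CPM in DCIS and none in Tumor, at least 16.1-fold lower (adjusted p = 0.00027). Saa3, an acute phase protein, stood at 121, 66.5, 202 and 185 CPM in the glands and 0 in Tumor, at least 11.5-fold lower than in DCIS, and Acod1, which makes itaconate in activated myeloid cells, stood at 533, 85.5, 77.6 and 134 CPM and 0, at least 5.63-fold lower. Both were detected in every gland library and in neither tumour. Pik3r5, a subunit of phosphoinositide 3-kinase gamma, was at least 8.85-fold lower and the amino acid transporter Slc7a2 at least 5.43-fold. Among the higher genes, Pa2g4 and Lsm7 were at least 12.7-fold and Nop58, a protein of the nucleolus, at least 13.3-fold higher than in DCIS, where each had no UMI. These 3 genes had 133, 57.0 and 76.0 CPM in Prepuberty 2, so they were also present in a young gland.

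Antigen presentation genes split. H2-DMb1 and H2-DMb2, chains of the molecule that edits peptides on MHC class II, were higher in Tumor: H2-DMb1 went from 51.7 and 41.2 CPM in DCIS to 1016 and 810 (3.73, SE 0.64, adjusted p = 0.0007), and H2-DMb2 from 15.5 and 0 to 266 and 281 (ratio 26.5, 8.55 to 133, adjusted p = 0.002). H2-Aa, a chain of the class II molecule itself, stood at 10324 and 8365 CPM in DCIS and 9327 and 5844 in Tumor and did not pass (-0.81, SE 0.55, adjusted p = 0.36). Lgmn, a protease of the endosome, was lower, with 362 and 422 CPM in DCIS and 133 and 10.8 in Tumor (-2.94, SE 0.75, adjusted p = 0.012). Of 9 class II genes tested these were the 3 that passed. No MHC class I gene passed among 14 (median -0.52), 8 had an unadjusted p under 0.05 in edgeR and DESeq2 called 1. Of 7 tested genes of the Xcr1 Clec9a programme, Ppt1 and Naaa were higher (median -0.39). Ppt1 went from 10.3 and 20.6 to 435 and 64.8 CPM (3.56, SE 0.92, adjusted p = 0.013). Naaa, which was 0 and 20.6 CPM in DCIS, reached 290 and 119 (ratio 29.0, 7.45 to 249, adjusted p = 0.013). Irf8 (-0.39, SE 0.67) and Batf3 (-1.74, SE 0.61, adjusted p = 0.063), both needed for type 1 cells, did not pass.

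Cell cycle and immediate early genes turned in large part on 1 cell. Of 16 cell cycle genes tested 3 were higher in Tumor, but of Cenpe and Cenpf Tumor 1 had no UMI, and all of the 897 and 454 CPM in Tumor 2 lay in the deepest cell. The number was 10 of 15 without Tumor 1 and 0 of 4 without Tumor 2. Stmn1, the third, stood at 15.5 and 10.3 CPM in DCIS, 242 in Tumor 1 and 335 in Tumor 2, the last falling to 58.4 without that cell. Of 17 AP-1 and immediate early genes 5 were higher (Btg2, Jund, Klf2, Ier2 and Egr1) and 1, Ier3, was lower, and the list median of 1.84 became -0.12 without cells over 20000 UMIs, as it did without Tumor 2, where 1 was higher (9 without Tumor 1). Egr1 in Tumor 2 went from 1231 CPM to 0 without it. Of 13 heat shock genes edgeR called 0 (2 at an unadjusted p under 0.05) and DESeq2 1, and of 12 glycolysis genes both called 0 (0 unadjusted).

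Other groups split or held few calls. Of 20 actin and migration genes 2 were higher in Tumor and 3 lower (median 0.39). Cotl1, an actin-binding gene, went from 114 and 123 CPM in DCIS to 1052 and 605 in Tumor (2.30, SE 0.60, adjusted p = 0.013), and Itgb2, the shared chain of the leukocyte integrins, from 0 and 20.6 to 181 and 97.2 (ratio 19.9, adjusted p = 0.032). The lower genes were Fscn1 and the pair of protein kinase C substrates Marcks and Marcksl1, of which Marcks went from 362 and 566 to 145 and 108 CPM (-2.36, SE 0.61, adjusted p = 0.012). Of 21 lysosome and phagocytosis genes, Fcgr2b, Fcgr3, Lyz2 and Lyz1 were higher and Ctsb, Npc2 and Lgmn lower (median 0.15). Npc2, a carrier of cholesterol in the lysosome, stood at 2592 and 2706 CPM in Prepuberty, 6310 and 6647 in DCIS, and 1476 and 659 in Tumor (-3.10, SE 0.59, adjusted p = 0.0015), with both tumours below every gland. Klf4 was the 1 higher and Relb the 1 lower of 15 lineage transcription factors (median -0.39). Of 7 receptors Ccr2 was higher and Tnfrsf1b lower, and of 3 pathogen sensors Clec4n was lower. Among lipid genes Fabp5, Fabp4 and Apoe were lower and Spp1 higher of 7 tested. Apoe, a gene that C1q macrophages express far more strongly, went from 1914 and 1729 CPM in DCIS to 206 and 43.2 in Tumor (-4.37, SE 0.67, adjusted p = 0.00027). The 14 macrophage markers, which hold the C1q genes limited by the rule, moved with it, at 1066 and 2716 CPM in Prepuberty, 2772 and 2490 in DCIS, and 702 and 529 in Tumor, and their part was not tested.

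Gene levels of the subsets were read within the tumours. No library had 5 cells in more than 1 subset, so these levels, over 5 Xcr1/Clec9a cells, 11 Cd209a cells and 5 Ccr7 cells, are a description with 95% exact Poisson intervals that cover counting error only. Of the Cd209a cells 8 came from Tumor 2, whereas 4 of the 5 Xcr1/Clec9a cells and 4 of the 5 Ccr7 cells came from Tumor 1, so subset and library cannot be told apart in these values. Irf8 stood at 1249 CPM (892 to 1700) in Xcr1/Clec9a cells, 310 (189 to 478) in Cd209a cells and 1263 (825 to 1850) in Ccr7 cells. Itgae, which encodes CD103, had UMIs in Xcr1/Clec9a cells only, 156 CPM (50.7 to 364), and Ppt1 stood at 1093 CPM (761 to 1520) there against 92.9 (34.1 to 202) in Cd209a cells. Cd209a cells held Lyz2 at 9710 CPM (8965 to 10501), Ccl6 at 2695 (2309 to 3126) and Ccr2 at 883 (669 to 1144), and Ccl6 had no UMI in Xcr1/Clec9a or Ccr7 cells. Xcr1/Clec9a cells held 1 UMI of Lyz2 and none of Ccr2. H2-Aa was alike in all 3 subsets, at 10145, 10020 and 9956 CPM.

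The 5 Ccr7 cells of the tumours were set beside the 44 of DCIS. They held Fscn1 at 1457 CPM (983 to 2080) against 767 (667 to 878), Marcksl1 at 1603 (1103 to 2251) against 1169 (1045 to 1305) and Cd83 at 826 (481 to 1322) against 544 (460 to 639). Ccl5 stood at 8159 CPM (6972 to 9490) against 62601 (61667 to 63545), Ccl22 at 194 (52.9 to 497) against 2777 (2583 to 2981), Il4i1 at 48.6 (1.23 to 271) against 570 (484 to 667) and Cd86 at 146 (30.1 to 426) against 680 (585 to 785). The interval of Fscn1 lay above that of DCIS and those of Marcksl1 and Cd83 overlapped it, while the intervals of Ccl5, Ccl22, Il4i1 and Cd86 lay below. With 4 of the 5 cells from Tumor 1, these values describe little more than that library.

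DCIS and Prepuberty were compared to follow the change from the young gland, with Prepuberty 2 alone on the Prepuberty side and assumed to vary like the libraries of the other states. Here 13 of 2365 genes passed (0.55%), 2 higher in DCIS (0.0846%) and 11 lower (0.465%), and 280 had an unadjusted p under 0.05. With 1 library on one side, the states did not overlap in 76.5% of all genes. With Prepuberty 1 let in, edgeR called 0 genes both over all dendritic cells (240 of 1554 unadjusted) and over Ccr7 cells only (123 of 939 unadjusted), whereas the fit without Tumor 1 called 194 and that without Tumor 2 called 20. The genes named next thus passed against 1 Prepuberty library and did not pass once Prepuberty 1 was let in. Klrk1, which encodes the receptor NKG2D, was higher in DCIS, at 341 and 370 CPM against 0 and 19.0 in Prepuberty (ratio 18.5, 4.99 to 155, adjusted p = 0.029). Ptgs2, the cyclooxygenase that makes prostaglandins, was also higher, at 145 and 535 against 72.7 and 9.49 (ratio 29.0, 5.06 to 1160, adjusted p = 0.038). The heat shock genes Hspa1a, Hspa1b and Hspb1 were lower, 3 of 13 tested. Hspa1a stood at 1429 and 9856 CPM in Prepuberty and 46.6 and 422 in DCIS (-4.97, SE 0.90, adjusted p = 0.008). Klf2 had 0 and 1405 CPM in Prepuberty and 5.17 and 0 in DCIS, so the 2 Prepuberty libraries disagreed. So they did for Ccl12, with 0 and 503 CPM in Prepuberty and none in DCIS (at least 48.7-fold lower), and for Lyz1, with 0 and 731. Gdf15, a stress-induced cytokine, was present in both, at 2520 and 342 CPM against 5.17 and 0 in DCIS (ratio 99.3, 16.7 to 4030, adjusted p = 0.034). Ccl6 and Klf4 were lower in DCIS as well, Ccl6 by a log2 difference of -3.70 (SE 0.73, adjusted p = 0.014), while in Prepuberty 2 the cells with no subset gene held 66 of its UMIs. Igkc and Egfl7, genes of B cells and endothelium, were among the lower genes, and the summed endothelial markers were 2181, 712, 20.7, 0, 24.2 and 43.2 CPM in the 6 libraries.

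Between Tumor and Prepuberty 46 genes passed (1.95%), 13 higher in Tumor (0.55%) and 33 lower (1.4%), and the states did not overlap in 65.6% of all genes. The count was 236 without Tumor 1, and with edgeR it was 0 both without Tumor 2 (278 at an unadjusted p under 0.05) and with Prepuberty 1 let in (244). The genes named next passed against Prepuberty 2 alone. Of the mature programme 4 of 24 were lower (Il4i1, Cd63, Ccl22 and Serpinb6b) and 0 higher, with a median of -1.88 beside 0.14 over all genes. Fabp4, a fatty acid carrier, had 4531 and 703 CPM in Prepuberty and none in Tumor, at least 41.0-fold lower than in Prepuberty 2 (adjusted p = 0.00043). Cd209d, Fcgr2b and Fcrls had no UMI in Prepuberty and were at least 9.01-fold, 8.41-fold and 9.01-fold higher in Tumor. This comparison shares its Tumor libraries with the one against DCIS.

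Dendritic cells were then compared with the C1q macrophages of the same libraries, 28 to 205 cells each with at least 2 of the 3 C1q genes, to see which genes set them apart in this tissue. Of 1927 genes 307 passed (15.9%), 117 higher in dendritic cells (6.07%) and 190 lower (9.86%). The count was 89 without DCIS 1, 164 without DCIS 2, 128 without the library block, 876 without the filter on low counts and 30 after the sums were thinned to equal depth. Cytip (ENSMUSG00000026832, chr2:58129137-58195532), which regulates adhesion of lymphoid and dendritic cells, showed the largest increase of the genes named. It stood at 370, 740, 597, 617 and 130 CPM in the dendritic cells of Prepuberty 2, DCIS 1 and 2 and Tumor 1 and 2, against 12.4, 10.8, 19.1, 94.0 and 20.5 in macrophages (4.18, SE 0.58, adjusted p = 0.002). Batf3 stood at 76.0, 233, 319, 145 and 86.4 against 18.5, 18.6, 28.6, 13.6 and 8.21 CPM (3.38, SE 0.33, adjusted p = 0.00034). Lsp1, an actin-binding protein of leukocytes (3.49, SE 0.46, adjusted p = 0.0017), the dendritic cell protease Napsa (3.01, SE 0.36, adjusted p = 0.0011), Glipr2 and the myosin Myo1g (3.48, SE 0.69) followed. In every library Cytip and Batf3 were higher in dendritic cells, and 29.2% of all genes went one way in every library.

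Of the transcription factors 6 of 16 were higher (Batf3, Etv3, Relb, Irf8, Rel and Nfil3) and 4 lower, among them Zeb2, Cebpb and Maf. Irf8 had a log2 difference of 1.44 (SE 0.41, adjusted p = 0.039). Of 6 class II genes tested H2-Aa (1.73, SE 0.38), H2-Eb1 (1.78, SE 0.39), H2-DMa (1.64, SE 0.28) and H2-DMb1 (1.75, SE 0.33) were higher, and the proteases Ctss (-1.32, SE 0.25) and Lgmn (-2.55, SE 0.56) lower. Lysosomal genes were lower in 15 of 22 and higher in 0 (median -1.76), lipid genes lower in 7 of 9 (median -1.96) and glycolysis genes lower in 6 of 13 (median -1.03), beside a median of -0.02 over all genes. All 7 macrophage markers tested besides the C1q genes were lower, among them Ms4a7 (-6.35, SE 0.46), Apoe (-4.64, SE 0.86) and Csf1r (-2.47, SE 0.41). The scavenger receptor Msr1 (-4.82, SE 0.46) and the platelet factor gene Pf4 (-5.98, SE 0.64) were lower too. The classes were chosen apart by C1q genes, and only dendritic cells had to hold H2-Ab1 and Cd74. Class II genes and macrophage markers expressed along with these genes may differ through that choice, and its part was not tested. Of 14 chemokines Ccl17 was higher and Ccl2, Ccl3, Ccl4, Ccl7 and Ccl12 lower. Ccl5 did not pass (1.68, SE 0.78, adjusted p = 0.16).

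**Figure D4:**
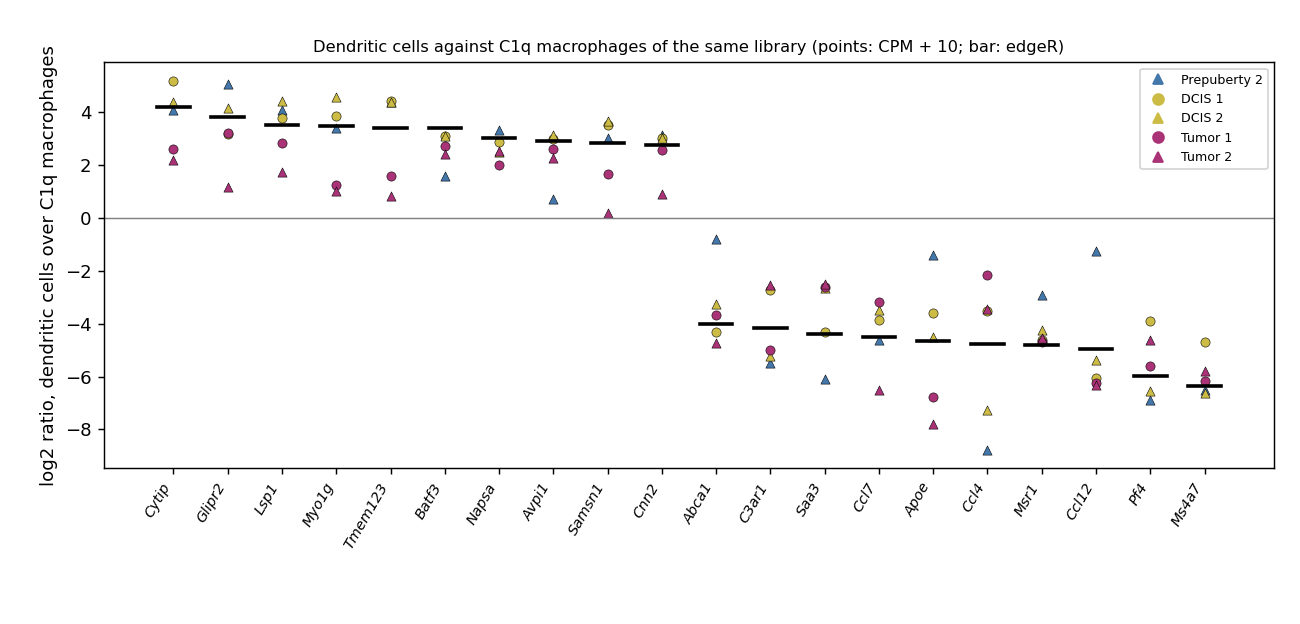
Log2 ratio of the level in dendritic cells to that in C1q macrophages of the same library (points, CPM + 10 in both; colours give the state, circles library 1 and triangles library 2) for the 10 genes most raised and the 10 most lowered by the rule for named genes; the black bar is the edgeR estimate. From Cytip (4.18) to Cnn2 (2.76) the bars are above 0, and from Abca1 (-4.02) to Ms4a7 (-6.35) below it.

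Whether a change between states was particular to dendritic cells was tested as an interaction of cell class with state. Between Tumor and DCIS 78 of 4525 genes differed in their change between the classes (1.72%), 32 toward dendritic cells in Tumor (0.707%) and 46 away (1.02%), while the libraries did not overlap in 43.5% of all genes. The count was 174 without Tumor 1, 32 without DCIS 1, 28 without DCIS 2, 130 without cells over 20000 UMIs and 1 without epithelial UMIs and with Prepuberty 1 let in. Of 27 tested genes of the mature programme 4 fell more in dendritic cells (Ccl17, Tbc1d4, Tmem123 and Samsn1) and 1, Ccl5, fell more in macrophages, where it stood at 16953 and 24261 CPM in DCIS and 113 and 0 in Tumor. Ccl5 was thus lower in Tumor in both classes. Clec4a2 was present in macrophages of every library at 51.9 to 143 CPM, and its rise from 0 was found in dendritic cells (interaction log2 8.40, SE 1.80, adjusted p = 0.0091). Fn1 stood at 252 and 275 CPM in DCIS macrophages and 318 and 1368 in Tumor macrophages. Between DCIS and Prepuberty 34 genes passed (0.751%; 72 without Tumor 1 and 116 without Tumor 2) and between Tumor and Prepuberty 31 (0.685%; 79 and 58), each with 1 Prepuberty library.

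**Figure D5:**
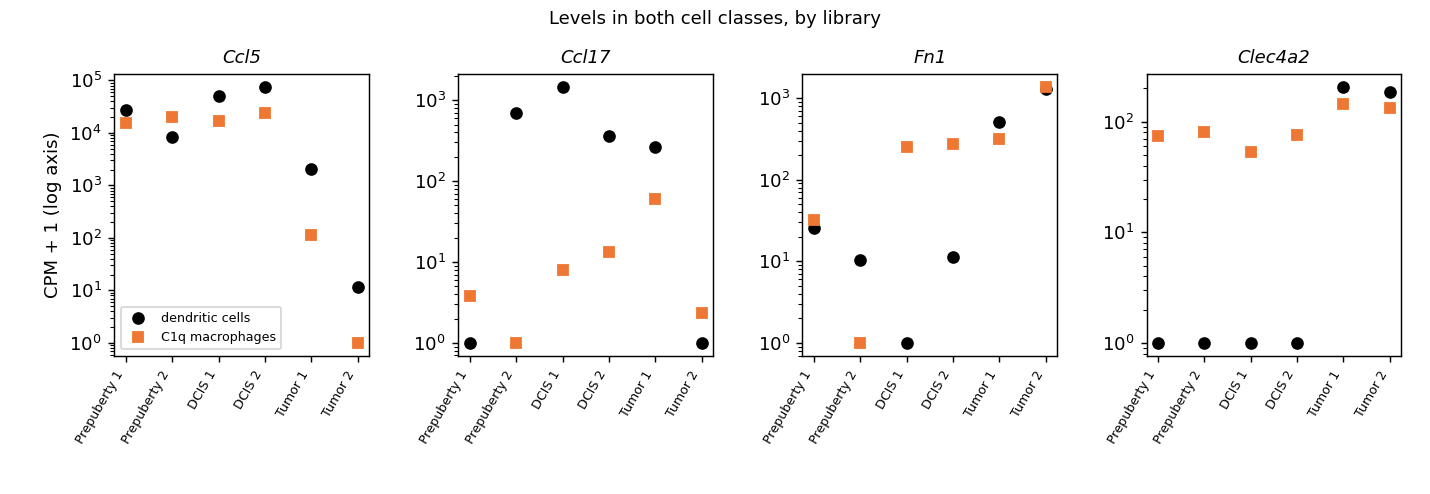
CPM + 1 (log axis) of Ccl5, Ccl17, Fn1 and Clec4a2 in dendritic cells (black circles) and C1q macrophages (orange squares) of each library. Ccl5 is lower in both classes of both tumours, whereas Clec4a2 is at 0 in the dendritic cells of the glands only.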

How the data were processed

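Count matrices of 6 libraries were analysed. The deposited values are raw UMI counts per gene and cell, made by the authors with Cell Ranger (3.0.2 in the matrix headers); the submitters' processing notes also name mm10, STAR, SAMtools, Picard and Salmon with no roles. Cells, subsets and gene lists were chosen with earlier results of these data known. Cells were kept and called as the opening states. Doublets were marked with Scrublet (scanpy 1.11.5), and were left out in an alternative only; the study's methods handled dead cells and doublets after Cell Ranger, through mitochondrial share and genes per UMI, and it is not stated that the deposited matrices carry this. Counts were summed per library and cell class. Libraries with at least 10 cells entered edgeR 4.0.16 (TMM scaling, filterByExpr, quasi-likelihood test, R 4.3.3), over all 5 such libraries, with the library as a block for the comparison with macrophages. A gene passed at a Benjamini-Hochberg adjusted p under 0.05. Standard errors were the log2 difference divided by the square root of F. The share of dendritic cells was compared by exact permutation (scipy 1.17.1). Scripts were tested on simulated counts.

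Rule genes were left out of the counts. Named genes were those of the lists plus, per comparison and direction, the 10 with the largest change among genes past the threshold whose libraries did not overlap (for macrophages, those with all libraries one way). Genes of the interaction are named for Tumor against DCIS only, since Prepuberty had 1 library. A subset was to be tested against another only within libraries holding 5 cells of both, which none did. Same-numbered libraries did not deviate together (correlations 0.07, -0.02 and -0.003 over 1435 genes), so they were not treated as pairs. DESeq2 1.42.0, other scalings and filters, and each library left out were alternatives. Those without cells over 20000 UMIs, without Krt8, Krt18 or T-antigen UMIs (in tests across genes, together with libraries of 5 or more cells), with libraries of 5 or more cells and within the Ccr7 subset were chosen after seeing the data.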

Additional observations from a re-analysis of the deposited data

Results flagged for a closer look

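The change from DCIS to Tumor differed between dendritic cells and C1q macrophages in 78 genes by the interaction term of edgeR (adjusted p under 0.05). The 20 given here are the 10 largest in each direction by the rule for named genes, with the difference on the log2 scale, dendritic cells minus macrophages. The first 10 fell more, or rose less, in dendritic cells. The difference was -8.84 for Tmem119, -8.28 for Stxbp6, -7.96 for Il2ra, which encodes the high-affinity IL-2 receptor chain, -7.67 for Pik3r5 and -4.57 for the chemokine Ccl17. It was -8.77 for Washc1, -5.52 for Grasp, -5.50 for Nostrin, -5.15 for Ltc4s and -4.74 for Rogdi. Il2ra stood at 0, 28.5, 109, 268, 0 and 10.8 CPM in the dendritic cells of Prepuberty 1 and 2, DCIS 1 and 2 and Tumor 1 and 2, with both tumours below both DCIS libraries.

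In the other direction the difference was 8.40 for the lectin Clec4a2, 6.16 for Fn1, 5.15 for Pld4, a nuclease of phagocytes, 5.24 for the protease Mmp19 and 7.77 for Glipr1. It was 8.82 for Phlda3, 7.97 for Gdf15, 6.04 for Dcn, 5.94 for Retnla and 5.34 for Lyz1, and all UMIs of these last 5 genes in Tumor 2 dendritic cells lay in its deepest cell. Pld4 stood at 24.2, 85.5, 5.17, 0, 520 and 227 CPM in dendritic cells, against 56.5, 55.6, 173, 185, 484 and 348 CPM in macrophages, so it was higher in Tumor in both classes. Where 1 class had no UMI in a state, the fitted size depends on the prior count and is no bound.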

How the results depend on the processing

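Most counts of genes moved with the processing, and the cause was not tested. The 307 genes of dendritic cells against macrophages became 876 with no filter on low counts, 128 with no library block and 30 with thinned sums (89 to 372 without 1 library). Tumor against DCIS went from 288 to 114 with DESeq2, 154 with libraries of 5 or more cells and 124 without cells holding Krt8, Krt18 or T-antigen UMIs, a setting that also let in Prepuberty 1, here as in each count of genes below (115 to 616 without 1 library). DCIS against Prepuberty went from 13 to 50 with a mitochondrial limit of 5%, 60 with no C1q gene, 26 with no filter, 217 with only the libraries compared, 106 without cells over 20000 UMIs, and 0 with libraries of 5 or more cells, in the Ccr7 subset or without epithelial UMIs (240, 123 and 211 unadjusted in edgeR; 12 to 194 without 1 library). Tumor against Prepuberty went from 46 to 95 (5% limit), 92 (no C1q gene), 15 (DESeq2), 0 (5 or more cells; 244 unadjusted), 131 (no cell over 20000 UMIs) and 6 (no epithelial UMIs), and spanned 0 to 236 without 1 library. With the replicate block, DCIS against Prepuberty had 35, Tumor against DCIS 350 and Tumor against Prepuberty 96 genes, but the numbers do not pair the libraries. The interaction went, for DCIS against Prepuberty, from 34 to 17 (DESeq2), 62 (no cell over 20000 UMIs) and 10 (no epithelial UMIs; 25 to 116 without 1 library); for Tumor against DCIS from 78 to 32 (doublets removed), 30 (DESeq2), 130 and 1 (28 to 174); and for Tumor against Prepuberty from 31 to 17 (doublets removed), 16 (no C1q gene), 12 (DESeq2), 14 (RLE size factors), 61 and 6 (33 to 79). With DESeq2, 27 of 114 genes were higher in Tumor than in DCIS, against 113 of 288.

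The difference in dendritic cell share of Tumor from Prepuberty reversed to -0.0179 points without epithelial UMIs and to -1.79 over Ptprc cells, and spanned -0.0377 to 0.219 without 1 library. The Ccr7 share of DCIS minus Prepuberty spanned -3.45 to 23.2 points, and the interaction of Gdf15 -0.63 to 13.8. The shares of Ccr7, Cd209a and Xcr1/Clec9a cells kept their direction under each alternative run, for Tumor against DCIS and against Prepuberty. That of cells with none of the subset genes turned in direction for Tumor against Prepuberty. The dendritic cell shares of DCIS against Prepuberty and Tumor against DCIS also kept their direction, though both shrank without doublets and without DCIS 1. For named genes, 289 of 296 values against macrophages, 264 of 319 for Tumor against DCIS, 153 of 202 for DCIS against Prepuberty and 250 of 331 for Tumor against Prepuberty stayed past the threshold, and none of these turned in direction. Of the interaction of Tumor against DCIS 168 of 274 stayed, 105 fell short and 1, Gdf15, turned; Tmem119 and Pik3r5 fell short in 10 of 14 alternatives. Subset against subset, and the state fit within Cd209a cells, were not run, since no library had enough cells. With 7 to 29 cells a library and 1 UMI worth 5.17 to 24.2 CPM, genes under about that level were not detectable.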
